A study of Mus musculus with 20 samples.

Results

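The TNF ligand and receptor superfamilies were followed in mouse liver 4 h after an injection of IL-1β. Members were chosen by gene symbol, under a rule set with earlier results of these data known. The rule took every row named Tnfsf or Tnfrsf followed by a number. It also took Tnf, Lta, Ltb, Fas, Fasl, Cd40, Cd40lg, Cd27, Cd70, Ngfr, Ltbr and Eda2r. The rule found 44 of the 37681 genes of each table, under 43 symbols, because Tnfrsf22 is listed under 2 identifiers. Of these, 17 were ligands and 27 were receptors.

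The study used male C57/BL6 mice that were 12 weeks old. The IL-1β treated group (ILB) was 5 mice injected intraperitoneally with 20 µg/kg IL-1β, and the untreated group (UNT) was 5 mice injected with saline. RNA from the whole liver of each mouse was made into strand-specific poly-A libraries for 2 platforms, Illumina HiSeq and Ion Torrent Proton. Reads of each platform were aligned in 3 ways (GSNAP, STAR, and STAR followed by Bowtie2), which gives 6 tables of gene counts. No mouse carried an engineered allele. The replicates were separate mice, while the 6 tables held the same 10 mice and are therefore not independent of each other.

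Library totals over genes ran from 10568530 to 12008799 on Illumina and from 12199528 to 16439683 on Ion Torrent. A gene was tested where at least 5 of the 10 libraries of a table held 5 or more reads, in any of the tables, which kept 15578 genes and 25 of the 44 members. Saa1, a serum amyloid A gene of the acute phase response, rose from 374–1230 reads in untreated mice to 77449–104048 reads in treated mice (Illumina, GSNAP). The 2 libraries of untreated mouse UNT_9584 were less alike than those of the other mice. Their deviations from their group means correlated at only 0.197–0.249 across genes, against 0.591–0.746 for the other 9 mice. For this sample the authors reported a lower correlation between platforms and a shifted Ion Torrent read-length distribution. Fold changes are given as treated over untreated, after TMM scaling, with adjusted p-values from edgeR's quasi-likelihood test corrected over the 15578 genes. Without TMM factors the median log2 fold change of all genes moved from 0 to −0.11 (Illumina, GSNAP), and the share of called genes that were higher moved from 49.8% to 38.9%. Of the members, only Tnfsf13 (Illumina, GSNAP) changed sign between these scalings, from a log2 fold change of 0.00 with TMM to −0.12 without, and it passed the test in neither.

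TNF superfamily ligands are mostly membrane-bound trimers that can be shed, and they signal by clustering their receptors on the target cell. One class of receptors carries a cytoplasmic death domain and can recruit adaptors that start apoptosis or necroptosis, while the others bind TRAF adaptors and lead to NF-κB and MAP kinase signalling. Decoy and soluble receptors bind ligand without passing on a signal. In liver, signalling through TNF receptors and Fas is known for its part in hepatocyte death, and IL-1β itself signals to NF-κB in hepatocytes.

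Promoters of the members were searched for 3 motifs, because the members were measured after a cytokine that acts through NF-κB. Sequences were taken from RefSeq on GRCm38.p6 and are windows of 300 bases around each annotated start site, most of them upstream. A promoter was found for 33 of the 43 symbols. The motifs were the NF-κB consensus, the AP-1 site TGANTCA and the STAT-binding GAS element (TTC and GAA with 3 bases of any kind between them), on both strands. Among the 11 members higher in all 6 tables with a promoter, 2 held an NF-κB match, 3 an AP-1 match and 5 a GAS match. Of all 33 member symbols with a promoter, whatever their change, 4, 6 and 9 held one. Of all 32851 promoters, 8.46%, 7.81% and 8.30% held one. Members were counted by symbol, some with several windows, and the background was counted by promoter. Of the 2 lower members none held an NF-κB or AP-1 match and 1 held a GAS match. A match describes letters in this window and shows no binding. The promoters shown, with every match in capitals, are those of the 2 higher members with an NF-κB match and of the 2 most abundant death-domain receptors.
Tnfrsf9: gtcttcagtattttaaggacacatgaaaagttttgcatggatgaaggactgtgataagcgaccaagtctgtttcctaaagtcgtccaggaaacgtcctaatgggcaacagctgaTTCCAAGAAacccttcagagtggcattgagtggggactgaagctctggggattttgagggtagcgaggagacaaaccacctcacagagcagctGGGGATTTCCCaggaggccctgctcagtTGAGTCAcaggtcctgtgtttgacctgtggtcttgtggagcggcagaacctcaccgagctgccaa
Ltb: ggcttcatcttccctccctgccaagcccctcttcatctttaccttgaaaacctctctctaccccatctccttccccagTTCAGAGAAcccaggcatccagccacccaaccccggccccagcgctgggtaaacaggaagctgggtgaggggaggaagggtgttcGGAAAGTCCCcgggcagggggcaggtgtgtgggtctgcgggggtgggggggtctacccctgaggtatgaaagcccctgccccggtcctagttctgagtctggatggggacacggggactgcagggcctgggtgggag
Fas: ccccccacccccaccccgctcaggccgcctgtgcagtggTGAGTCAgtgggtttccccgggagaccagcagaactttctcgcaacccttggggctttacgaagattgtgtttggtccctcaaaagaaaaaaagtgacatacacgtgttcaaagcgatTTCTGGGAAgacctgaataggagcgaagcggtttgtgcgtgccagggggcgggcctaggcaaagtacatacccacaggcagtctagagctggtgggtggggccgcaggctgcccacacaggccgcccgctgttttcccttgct
Tnfrsf1a: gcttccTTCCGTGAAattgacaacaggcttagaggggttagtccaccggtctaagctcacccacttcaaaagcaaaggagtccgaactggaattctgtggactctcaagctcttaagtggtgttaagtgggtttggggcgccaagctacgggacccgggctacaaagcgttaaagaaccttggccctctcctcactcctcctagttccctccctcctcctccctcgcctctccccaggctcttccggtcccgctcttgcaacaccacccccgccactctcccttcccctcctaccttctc
The Tnfrsf9 window lies at chr4:150927749-150928048 on the plus strand and holds all 3 motifs. Counted from the start site, its GAS match begins at −136, its 2 overlapping NF-κB matches begin at −43 and −42, and its AP-1 match begins at −15. A further annotated start of Tnfrsf9, with a window from 150919905, held no match. The Ltb window (chr17:35194257-35194556, plus strand) has a GAS match from −172 and an NF-κB match from −87. The Fas window (chr19:34290409-34290708, plus strand) has an AP-1 match from −211 and a GAS match from −93, and no NF-κB match. In the Tnfrsf1a window (chr6:125349473-125349772, plus strand) there was a single GAS match from −244. Apart from the pair of NF-κB matches of Tnfrsf9, no match shared bases with another in these windows.

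Of the 25 tested members, 13 were higher in IL-1β treated liver in all 6 tables, and 2 were lower in all 6. The higher members were the death-domain receptors Tnfrsf1a, Fas, Tnfrsf10b, Tnfrsf21 and Ngfr, the decoy receptors Tnfrsf22 and Tnfrsf23, the receptors Tnfrsf12a, Tnfrsf1b, Tnfrsf9 and Eda2r, and the ligands Ltb and Tnfsf14. The lower members were the ligand Tnfsf10 and the receptor Tnfrsf19. As a background, 17.3% of all tested genes were higher and 17.6% lower in all 6 tables, against 52% and 8% of the tested members. These shares describe the members that passed the filter and do not support a statement on the families. In some tables Tnfrsf9 (5 tables), Tnfsf14 (3 tables), Ltb, Tnfrsf22 and Tnfrsf23 (1 table each) passed only through the treated libraries. Where this was so, a lack of overlap in reads follows from that route and adds no support. Since whole liver was sequenced, more or fewer cells of a type and more or less RNA per cell cannot be told apart.

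**Figure D1:**
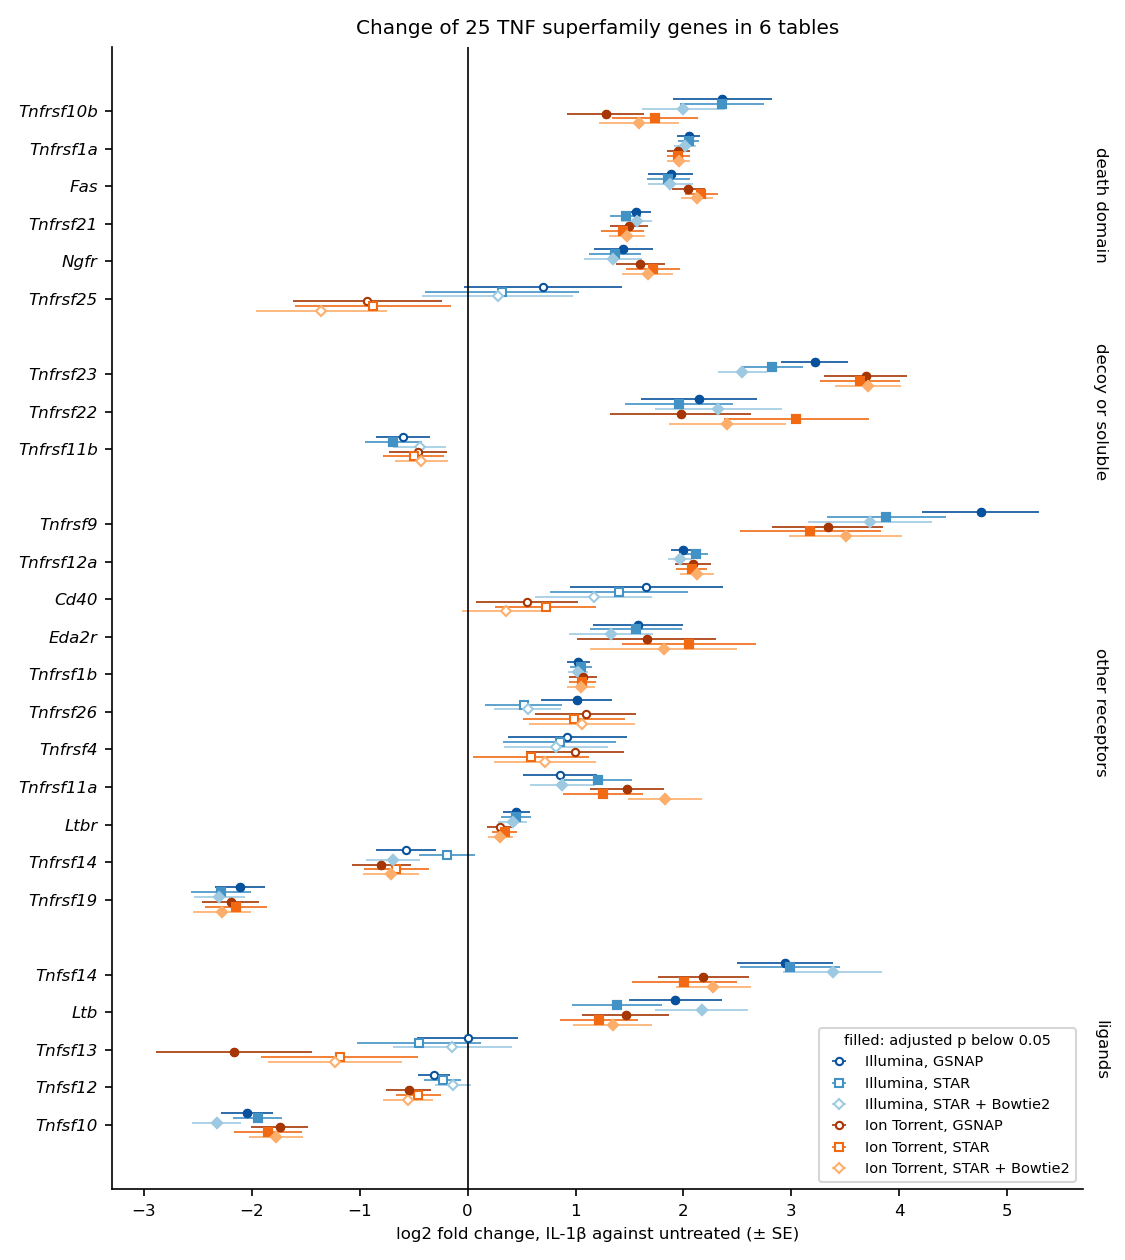
Log2 fold change (treated over untreated, ± SE) of the 25 tested members in each of the 6 tables, grouped by role, with 5 mice per group and filled symbols for an adjusted p below 0.05. The 13 members higher in every table lie to the right of 0 and Tnfsf10 and Tnfrsf19 lie to the left in every table, while Tnfrsf25 lies on opposite sides on the 2 platforms.

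By table, 15 members were higher and 2 lower with Illumina GSNAP, beside 23.7% and 23.9% of all tested genes. Illumina STAR gave 15 and 3 (all genes 22.7% and 22.9%), and Illumina STAR + Bowtie2 gave 15 and 3 (22.9% and 24.4%). On Ion Torrent the counts were 14 and 5 with GSNAP (22.5% and 23.9%), 15 and 2 with STAR (20.3% and 21.8%), and 15 and 3 with STAR + Bowtie2 (22.8% and 24%). On TMM-scaled counts, treated and untreated mice did not overlap for 13 of the 25 members in the Illumina GSNAP table. The same held there for 35.2% of all tested genes. Overlap by the reads listed below can differ, as for Tnfrsf22 and Ltbr, whose reads overlapped but whose scaled counts did not. Without mouse UNT_9584 the 6 tables gave 14 to 15 higher and 2 to 5 lower members. Values below are from the GSNAP tables unless another aligner is named, and reads are listed in the order of mice UNT_9574, UNT_9575, UNT_9576, UNT_9580 and UNT_9584 for the untreated group and ILB_9577, ILB_9578, ILB_9579, ILB_9582 and ILB_9583 for the treated group.

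All 6 receptors with a death domain were tested, and 5 of them rose in every table. Tnfrsf1a, the main receptor for soluble TNF, lies on chromosome 6 at 125299380–125312502 (plus strand, NCBIM37, as are all gene positions here). It had 971, 740, 854, 795 and 608 Illumina reads in untreated mice and 2950, 2792, 2760, 3064 and 2957 in treated mice. Every treated mouse was above every untreated mouse by a wide margin, and the treated mice were close to each other. The fold was 4.14 (log2 fold change 2.05 ± 0.11 SE, adjusted p = 4.33e-09), and over the 6 tables it stayed between 3.86 and 4.14.

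Fas, the receptor whose ligand on cytotoxic lymphocytes can trigger apoptosis of hepatocytes, lies on chromosome 19 at 34365149–34402260 (plus strand). Its Illumina reads were 167, 188, 168, 133 and 269 in untreated mice and 452, 542, 841, 676 and 528 in treated mice. The groups did not overlap, although the untreated mouse UNT_9584 was the highest of its group and the treated mice differed from each other more than for Tnfrsf1a. The log2 fold change was 1.88 ± 0.21 (adjusted p = 4.38e-06) on Illumina and 2.05 ± 0.15 (adjusted p = 5.87e-08) on Ion Torrent. Folds over the 6 tables ran from 3.63 to 4.48.

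Tnfrsf21, also called death receptor 6 and studied mostly in neurons and T cells, had 68, 73, 68, 71 and 52 Illumina reads in untreated mice against 176, 212, 184, 158 and 137 in treated mice. Again the groups were separate, in all 6 tables. This was a log2 fold change of 1.56 ± 0.14 (adjusted p = 5.86e-07). Ngfr, the low-affinity neurotrophin receptor, which hepatic stellate cells are known to carry, had 40, 27, 19, 28 and 20 reads in untreated mice and 95, 33, 79, 50 and 67 in treated mice. By reads, treated mouse ILB_9578 fell inside the untreated range. For Ngfr the log2 fold change was 1.44 ± 0.27 (adjusted p = 0.000518). Levels of stellate cell and fibroblast markers were summed as CPM, counts per library scaled to a common size. The sum of the 6 was 166.8–265.0 in treated and 240.3–303.6 in untreated mice, with none of the 6 higher and 2 lower. This sum is mostly Dcn, with a mean of 1495 reads in treated and 1987 in untreated mice. The part of these cells in the Ngfr result was not tested.

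Tnfrsf10b, the death-domain receptor for TRAIL in the mouse, was a low-abundance transcript. It had 1, 2, 2, 2 and 6 Illumina reads in untreated mice and 19, 13, 12, 5 and 13 in treated mice, so that treated mouse ILB_9582 fell below untreated mouse UNT_9584. On Ion Torrent the reads were 3, 6, 3, 7 and 3 against 9, 9, 10, 11 and 10, with no overlap. Treatment gave a log2 fold change of 2.36 ± 0.45 (adjusted p = 0.000613) on Illumina and 1.28 ± 0.36 (adjusted p = 0.00811) on Ion Torrent. Tnfrsf25, the death-domain receptor for Tnfsf15 on T cells, passed no test. The fitted log2 fold change was 0.70 ± 0.73 on Illumina (9 treated against 6 untreated reads) and −0.93 ± 0.69 on Ion Torrent, positive with all 3 aligners on one platform and negative with all 3 on the other.

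**Figure D2:**
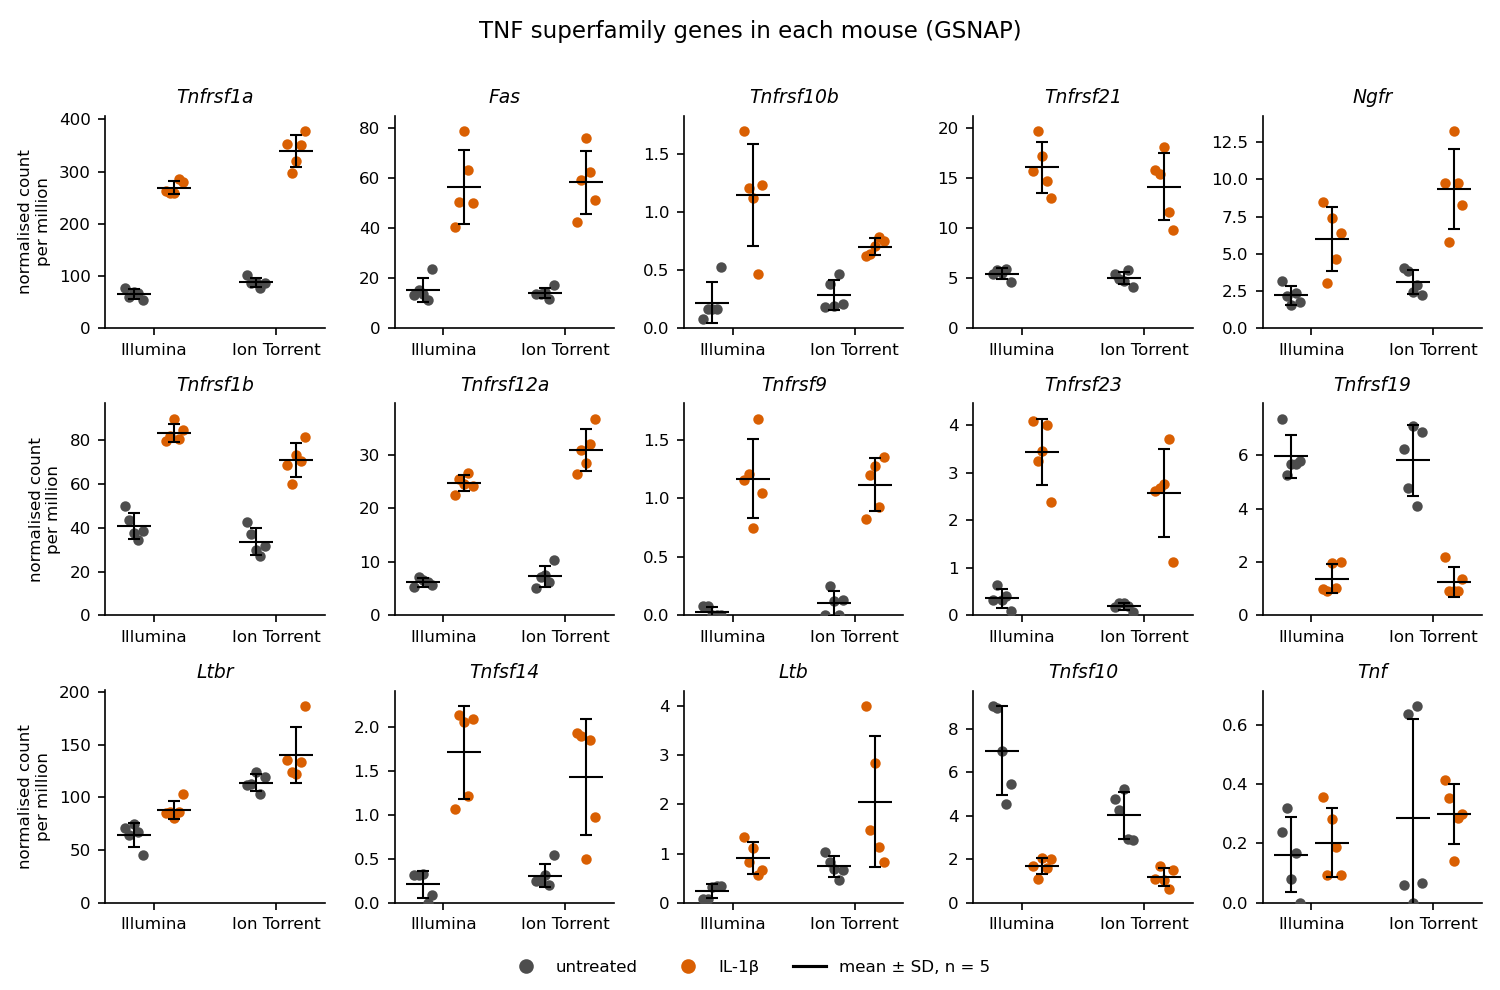
Normalised CPM (linear axes from 0) of 15 members in each mouse, for both platforms with GSNAP, where grey points are untreated mice, orange points are treated mice and bars give the mean ± SD of 5 mice. Treated mice lie above untreated mice for Tnfrsf1a, Fas, Tnfrsf12a and Tnfrsf9 and below them for Tnfrsf19 and Tnfsf10, while for Tnf the groups overlap.

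Decoy receptors rose as well. Tnfrsf23 and Tnfrsf22 are mouse receptors that bind TRAIL without a death domain, and they are neighbours on the minus strand of chromosome 7, at 150851714–150871777 and 150820713–150835566. Tnfrsf23 had 4, 8, 4, 5 and 1 Illumina reads in untreated mice and 46, 35, 37, 43 and 25 in treated mice. On Ion Torrent it had 3, 4, 4, 3 and 1 against 38, 38, 39, 52 and 15. No treated mouse came near the untreated range on either platform. It rose by a log2 fold change of 3.21 ± 0.31 (adjusted p = 1.38e-06) on Illumina and of 3.69 ± 0.39 (adjusted p = 1.78e-06) on Ion Torrent, and over the tables the value ran from 2.55 to 3.71.

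Tnfrsf22 was scarcer, with 3, 0, 5, 1 and 2 Illumina reads in untreated mice and 5, 9, 14, 12 and 5 in treated mice. Untreated mouse UNT_9576 reached the lowest treated mice. The gene rose by a log2 fold change of 2.14 ± 0.54 (adjusted p = 0.00418) on Illumina and of 1.97 ± 0.65 (adjusted p = 0.0209) on Ion Torrent, where mouse UNT_9584 held 8 of the 11 untreated reads and the value without it was 3.40. Transcripts of Tnfrsf22 and Tnfrsf23 were 91.0% identical over an aligned stretch of 2174 bases, so that reads could be shared between them by the counting. The other identifier of Tnfrsf22 has 99.9% of its exon bases inside the first and held no read in any table. Tnfrsf26, the next gene of the same cluster (150793568–150813858), had a log2 fold change of 1.01 ± 0.33 (adjusted p = 0.0196) with Illumina GSNAP. It passed the test in that table alone, and there not when mouse ILB_9577 or ILB_9579 was left out (0.90 and 0.87).

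Osteoprotegerin (Tnfrsf11b), the soluble receptor that binds RANKL and TRAIL, did not follow the decoys of chromosome 7. It had 52, 47, 36, 29 and 31 Illumina reads in untreated mice and 30, 31, 17, 24 and 12 in treated mice, and the groups overlapped. Over the 6 tables its log2 fold change lay between −0.69 and −0.43, with a lower call with Illumina STAR only (adjusted p = 0.0471). Tnfrsf11a, the signalling receptor for RANKL, had 13, 4, 15, 6 and 6 reads against 10, 19, 13, 15 and 14 on Illumina. It was higher in 5 tables and missed the threshold in the Illumina GSNAP table (log2 fold change 0.86 ± 0.34, adjusted p = 0.0507), where leaving out mouse ILB_9577, UNT_9574 or UNT_9576 brought it past.

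Among the 17 receptors with neither role, of which 11 were tested, the clearest rise per mouse was in Tnfrsf12a. This receptor for TWEAK, also called Fn14, is known to be induced in injured and regenerating liver, and lies on chromosome 17 at 23812414–23814416 (minus strand). It had 66, 90, 81, 74 and 64 Illumina reads in untreated mice and 252, 275, 262, 284 and 255 in treated mice. Both groups were tight and lay far apart. The log2 fold change was 1.997 ± 0.11 (adjusted p = 1.04e-08) on Illumina and 2.09 ± 0.17 (adjusted p = 1.07e-07) on Ion Torrent, with folds of 3.90 to 4.37 over the tables.

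Tnfrsf1b, the TNF receptor without a death domain that is prominent on leukocytes and endothelium, rose less than Tnfrsf1a. Its Illumina reads were 631, 543, 466, 410 and 441 in untreated mice and 893, 885, 959, 861 and 890 in treated mice, without overlap. The log2 fold change was 1.03 ± 0.10 (adjusted p = 2.07e-06), and it varied only between 1.02 and 1.07 over the 6 tables. The difference between the fold changes of the 2 TNF receptors was not tested.

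Tnfrsf9, the costimulatory receptor CD137 of activated T and NK cells, was close to absent in untreated liver. It had 1, 1, 0, 0 and 0 Illumina reads in untreated mice and 13, 13, 8, 18 and 11 in treated mice. The pooled reads, 63 against 2, give a ratio of 32.6 with an exact 95% counting interval of 8.66 to 275.1, which covers counting error only. On Ion Torrent it had 0, 4, 2, 0 and 2 reads against 12, 17, 18, 13 and 18, a ratio of 10.05 (4.85 to 24.1), and no treated mouse overlapped an untreated one in any table. In 5 tables Tnfrsf9 passed the filter only through the treated libraries, so that the lack of overlap there adds no support. The fitted log2 fold change was 4.75 ± 0.54 (adjusted p = 6.19e-06) on Illumina and 3.33 ± 0.52 (adjusted p = 8.12e-05) on Ion Torrent, where it was 3.94 without untreated mouse UNT_9575. Fitted values of a gene this low depend on the prior count of the fit.

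Of 8 listed markers of T and NK cells 4 were tested, none was called higher and 1 (Cd4) was called lower. Klrb1c (log2 fold change 0.58), Cd3g (−0.38) and Nkg7 (−0.56) were not called. The summed level of the 8 was 1.61–2.67 CPM in treated and 2.76–4.08 in untreated mice. This sum includes genes too low to test, and Cd4 alone went from a mean of 17.6 reads in untreated to 5 in treated mice. Neutrophil markers did rise. Of 8 listed genes 7 were tested and 7 rose, with a summed level of 55.4–121.1 CPM in treated mice against 2.81–6.02 in untreated mice. Ly6g, a defining neutrophil marker, was itself near the floor, with 7 treated and 0 untreated Illumina reads and 12 against 28 Ion Torrent reads. Monocyte markers were higher for 3 of 4 (3.51–9.65 against 1.54–2.85). Of the resident cells, cholangiocyte markers had a summed level 2.23 times the untreated one, with 2 of 4 higher (Sox9 and Epcam), and hepatocyte markers one of 0.691 times, with 3 of 5 lower. Kupffer cell and macrophage markers were lower for 4 of 8 and higher for 1 (Marco), at 0.747 times the untreated sum. Sinusoidal endothelium markers were lower for 2 of 6, Kdr and Clec4g (log2 fold changes −1.63 and −1.20), and higher for 1 (Lyve1), at 0.731 times. Except where Ion Torrent is named, these marker values are from Illumina GSNAP. No gene of these lists was at 0 in all libraries, and the part of these cells in the member results was not tested.

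Eda2r, the receptor for the A2 form of ectodysplasin, had 5, 5, 7, 4 and 15 Illumina reads in untreated mice and 16, 37, 12, 19 and 13 in treated mice. Untreated mouse UNT_9584 lay inside the treated range. Illumina gave a log2 fold change of 1.58 ± 0.42 (adjusted p = 0.00589), and 2.05 without mouse UNT_9584. On Ion Torrent it was 1.66 ± 0.64 (adjusted p = 0.0450), and there the call was lost when any of 7 mice was left out (ILB_9577, ILB_9578, ILB_9582, UNT_9574, UNT_9575, UNT_9576 or UNT_9580, with values from 1.22 to 1.72).

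Ltbr, the lymphotoxin β receptor, which turns on the NIK pathway to Nfkb2, had a high level in both groups and a small rise. It had 890, 805, 927, 803 and 515 Illumina reads in untreated mice and 953, 933, 857, 921 and 1083 in treated mice. A log2 fold change of 0.45 ± 0.13 (adjusted p = 0.00841) was found on Illumina and of 0.30 ± 0.12 (adjusted p = 0.0506) on Ion Torrent, and it was called in 5 tables. With 1 mouse left out the Illumina value ran from 0.35 (without UNT_9584) to 0.51 (without UNT_9576). The Ion Torrent value ran from 0.17 (without ILB_9583) to 0.34 (without ILB_9578). Without TMM factors the Illumina value was 0.32 and no longer passed the test. Tnfrsf14, the receptor for LIGHT also called HVEM, went the other way, with 36, 32, 32, 16 and 17 reads against 16, 15, 13, 24 and 11 on Illumina. The groups overlapped, and it was lower in 3 tables (log2 fold change −0.80 ± 0.27 on Ion Torrent, adjusted p = 0.0246, lost without mouse ILB_9578, UNT_9574 or UNT_9575).

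Tnfrsf19, a receptor also called TROY and known from skin and the nervous system, fell the most of the receptors. On Illumina it had 93, 66, 70, 68 and 66 reads in untreated mice and 11, 10, 21, 11 and 21 in treated mice. On Ion Torrent it had 102, 75, 112, 62 and 102 against 32, 13, 13, 13 and 18. The groups were separate in all 6 tables, and treated levels were 20.3% to 23.2% of untreated levels. On the log2 scale the change was −2.11 ± 0.23 (adjusted p = 3.93e-06) on Illumina and −2.19 ± 0.26 (adjusted p = 7.4e-06) on Ion Torrent.

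Cd40, which B cells and macrophages use to receive T cell help, had 0, 2, 3, 0 and 1 Illumina reads in untreated mice and 1, 6, 6, 3 and 2 in treated mice. Its log2 fold change of 1.66 ± 0.71 missed the threshold (adjusted p = 0.0686), and was 2.24 without untreated mouse UNT_9576, where it passed. On Ion Torrent Cd40 held more reads, 45 in treated and 34 in untreated mice, with a smaller log2 fold change of 0.55 ± 0.47 (adjusted p = 0.367), and over the 6 tables, none of which called it, the value ran from 0.36 to 1.66. Tnfrsf4, the T cell receptor OX40, was called in no table (log2 fold changes 0.59 to 0.996). Cd27, Tnfrsf8, Tnfrsf13b, Tnfrsf13c, Tnfrsf17 and Tnfrsf18, all receptors of lymphocytes, had too few reads to be tested, with at most 7 in any library of any table. Markers of B cells were lower for 4 of the 5 tested on Illumina and for 3 of 5 on Ion Torrent.

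Only 5 of the 17 ligands had enough reads to be tested: Tnfsf10, Tnfsf14, Ltb, Tnfsf12 and Tnfsf13. The transcript of TNF itself was barely present at 4 h. Tnf, on chromosome 17 at 35336326–35338952 (minus strand), had 3, 4, 1, 2 and 0 Illumina reads in untreated mice and 4, 1, 3, 2 and 1 in treated mice. On Ion Torrent it had 1, 10, 0, 10 and 1 against 6, 5, 2, 4 and 4. The groups overlapped on both platforms, and the ratio of pooled reads was 1.14 (exact 95% interval 0.439 to 2.99) on Illumina and 0.984 (0.515 to 1.88) on Ion Torrent. A change within these bounds was not detectable at this depth. The intervals cover counting error only and leave out the spread between mice, so changes outside them are not excluded. Lta, its neighbour at 35340110–35342296 that encodes lymphotoxin α, never had more than 1 read in a library.

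Ltb, the membrane partner of lymphotoxin α and the third gene of that locus (35331384–35333265, plus strand), did rise. It had 1, 1, 4, 4 and 4 Illumina reads in untreated mice and 15, 9, 12, 6 and 7 in treated mice, without overlap. On Ion Torrent the reads were 17, 13, 11, 7 and 10 against 58, 21, 40, 16 and 11, and there the lowest treated mouse lay inside the untreated range. The log2 fold change was 1.92 ± 0.43 (adjusted p = 0.00186) on Illumina and 1.46 ± 0.41 (adjusted p = 0.00763) on Ion Torrent.

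LIGHT (Tnfsf14), a ligand of both Ltbr and Tnfrsf14, had the larger rise of the 2 tested ligands that were higher in every table. It had 4, 4, 4, 0 and 1 Illumina reads in untreated mice and 12, 23, 22, 13 and 22 in treated mice. The groups did not overlap on Illumina, whereas on Ion Torrent (4, 4, 5, 3 and 8 against 28, 27, 7, 26 and 13) treated mouse ILB_9579 fell below untreated mouse UNT_9584. Across mice it rose by a log2 fold change of 2.94 ± 0.44 (adjusted p = 7.58e-05) on Illumina and of 2.18 ± 0.42 (adjusted p = 0.000534) on Ion Torrent. The neighbouring ligand genes Tnfsf9 (57244808–57247180) and Cd70 (57285420–57289200) on chromosome 17 were too low to be tested, and Cd70 had no read at all.

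TRAIL (Tnfsf10), the ligand of Tnfrsf10b and of the decoys Tnfrsf22 and Tnfrsf23, fell where these 3 receptors rose, while osteoprotegerin, which also binds TRAIL, did not rise. It lies on chromosome 3 at 27215950–27241349 (plus strand). Illumina reads were 114, 112, 86, 54 and 62 in untreated mice and 19, 12, 22, 17 and 21 in treated mice. Ion Torrent reads were 78, 67, 83, 44 and 43 against 16, 24, 15, 9 and 20. In all 6 tables the groups were separate, and treated levels were 20.0% to 29.9% of untreated levels. On the log2 scale the change was −2.04 ± 0.24 (adjusted p = 7.36e-06) on Illumina and −1.74 ± 0.27 (adjusted p = 7.44e-05) on Ion Torrent.

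TWEAK (Tnfsf12), the ligand of Tnfrsf12a, did not rise with its receptor. It had 67, 50, 65, 64 and 48 Illumina reads in untreated mice and 45, 42, 37, 42 and 44 in treated mice, with separate ranges of reads. After scaling the log2 fold change was −0.31 ± 0.15 (adjusted p = 0.104) on Illumina and −0.55 ± 0.21 (adjusted p = 0.0412) on Ion Torrent, where the call was lost without any of 5 mice (ILB_9578, ILB_9579, ILB_9582, UNT_9574 or UNT_9580). APRIL (Tnfsf13), a B cell survival factor, had 5, 2, 2, 5 and 4 reads against 4, 3, 6, 3 and 0 on Illumina, where its log2 fold change was 0.00 ± 0.46. On Ion Torrent it was −2.16 ± 0.72 (adjusted p = 0.0217) from 3, 3, 7, 8 and 6 against 3, 0, 0, 2 and 0 reads, and −3.01 without treated mouse ILB_9577. Tnfsf12 and Tnfsf13 were each called in 1 table only, Ion Torrent GSNAP, and not with the other aligners. Both genes are uncertain, since 48.3% of the exon bases of Tnfsf12 and 60.05% of those of Tnfsf13 are shared with BC096441, a same-strand gene that spans them.

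Of the ligands without a test, Cd70 and Tnfsf4 had no read in any table, which allows up to 3 reads per group. The other identifier of Tnfrsf22 had no read either. Since 99.9% of its exon bases lie inside the first identifier, no such bound is set for it. Fasl, the ligand of Fas, had 1, 1, 2, 0 and 1 Illumina reads in untreated mice and 0, 0, 0, 2 and 3 in treated mice. Cd40lg, Tnfsf11 (RANKL), Tnfsf15, Tnfsf18 and Tnfsf8 had at most 5 reads in a library, and Tnfsf13b (BAFF) at most 10. With no filter on low counts, Tnfsf9, the ligand of Tnfrsf9, was called higher in the 3 Ion Torrent tables (log2 fold change 2.89 ± 0.97 with GSNAP, adjusted p = 0.0225). Its reads there were 0, 0, 0, 2 and 0 against 2, 2, 2, 1 and 10, so mouse ILB_9583 held 10 of the 17 treated reads, and on Illumina the pooled reads were 4 against 3. Tnfrsf13c, the BAFF receptor, was called lower in 1 table without the filter (Illumina STAR + Bowtie2, adjusted p = 0.0424).

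By role, the median log2 fold change with Illumina GSNAP was 1.72 for the death-domain receptors, 2.14 for the 3 tested decoy or soluble receptors, 1.01 for the 11 other receptors and 0.00 for the 5 ligands, against 0 for all tested genes. With Ion Torrent GSNAP the medians were 1.55, 1.97, 1.07 and −0.55. Ligands split in direction, with GSNAP 2 higher and 1 lower on Illumina and 2 higher and 3 lower on Ion Torrent. With STAR and with STAR + Bowtie2, 2 were higher and 1 lower on both platforms. These medians describe the members that passed the filter.

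Levels were then compared between genes as normalised CPM per kilobase of exon, so that long and short transcripts could be set side by side. In untreated liver Ltbr (27.4 ± 4.88 SD, n = 5) and Tnfrsf1a (25.03 ± 3.499) led on Illumina, and their ranges overlapped (19.2–31.9 and 20.5–29.6). Tnfrsf1b (10.7 ± 1.59), Fas (8.51 ± 2.69) and Tnfrsf12a (6.40 ± 0.805) followed below them without overlap, and among themselves each overlapped its neighbour in this order. The highest ligands were Tnfsf12 at 3.19 ± 0.438 and Tnfsf10 at 1.33 ± 0.386.

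In treated liver Tnfrsf1a stood alone at 103.7 ± 5.02, with no overlap with Ltbr at 37.4 ± 3.67. Fas (31.4 ± 8.23), Tnfrsf12a (25.6 ± 1.58) and Tnfrsf1b (21.8 ± 1.07) came next. The range of Fas (22.3–43.7) covered parts of the ranges of Ltbr, Tnfrsf12a and Tnfrsf1b. Tnfrsf1a thereby moved from 27.6% to 43.8% of the summed level of the 44 genes and Ltbr from 30.2% to 15.8%. Ion Torrent gave the same first 5 genes in both groups, with Tnfrsf1a at 27.9% and 44.8% of the sum. Tnfrsf9, in spite of its fold, reached only 0.429 ± 0.124, and Tnfsf10 came down to 0.321 ± 0.0718.

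**Figure D3:**
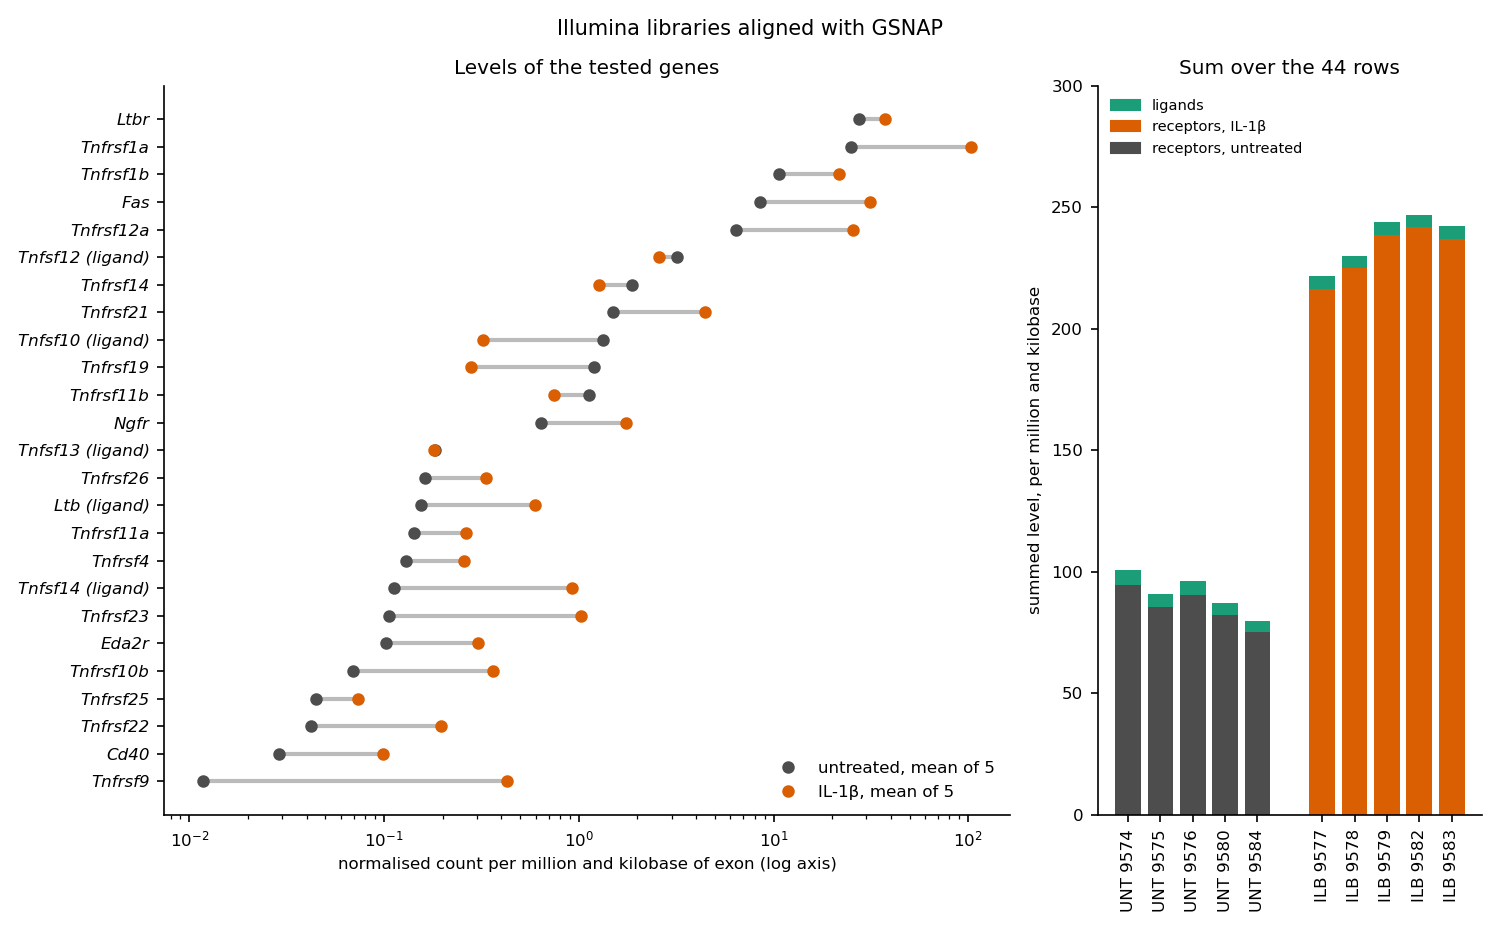
Left, mean level per length (normalised CPM per kilobase of exon, log axis) of the 25 tested members in 5 untreated (grey) and 5 treated (orange) mice, Illumina GSNAP table; right, the level summed over the 44 genes in each mouse, with receptors in grey or orange and ligands in green. Tnfrsf1a moves from 25.03 to 103.7, and the summed bars stand at 79.6–100.6 in untreated and 221.8–246.8 in treated mice with a ligand part of about the same height.

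The summed level of the 44 genes was 90.8 ± 8.10 (79.6–100.6) in untreated and 236.9 ± 10.63 (221.8–246.8) in treated mice on Illumina, a ratio of 2.61. An exact two-sided permutation test gave p = 0.00794, the smallest value that 5 against 5 mice allow. On Ion Torrent the ratio was 2.41 with the same p. The ligands alone did not follow: their sum was 5.34 ± 0.555 in untreated and 5.07 ± 0.288 in treated mice on Illumina (ratio 0.949, exact permutation p = 0.373) and 5.77 against 5.61 on Ion Torrent (ratio 0.974, exact permutation p = 0.889). With 1 mouse left out at a time the Ion Torrent ratio ranged from 0.851 to 1.02. The lowest value came without treated mouse ILB_9577, which had the highest ligand sum of its group. In untreated mice on Illumina the ligand sum was mostly Tnfsf12, whose counts are uncertain, and Tnfsf10. It does not show that single ligands were unchanged, since Tnfsf14 and Ltb were higher and Tnfsf10 lower in all 6 tables. The ligands' share of the sum went from 5.87% to 2.14% on Illumina and from 4.79% to 1.94% on Ion Torrent. This fall follows from the rise of the total and is no separate result. Since the sum is dominated by Tnfrsf1a, Ltbr and Fas, it mostly repeats their values, and it was computed after these values were known. The p of the summed level of the 44 genes therefore adds no support to theirs.

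The platforms were compared by a platform-by-treatment term with the mouse as a replicate block, since each mouse gave a library to both. The edgeR test called none of the 25 members with any aligner, where 0.0642% (GSNAP), 0.00642% (STAR) and 0.077% (STAR + Bowtie2) of all genes were called. At an unadjusted p below 0.05 there were 1, 1 and 3 members, beside 7.81%, 7% and 7.77% of all genes. With limma-voom none was called either, and 1, 2 and 2 members were below 0.05 unadjusted. The smallest p was that of Tnfrsf23 with STAR + Bowtie2, where the Ion Torrent log2 fold change exceeded the Illumina one by 1.14 ± 0.37 (adjusted p = 0.616). Tnfrsf25, whose sign differed between the platforms, was not among those below 0.05. A miss of the threshold does not show that the platforms gave equal values.

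**Figure D4:**
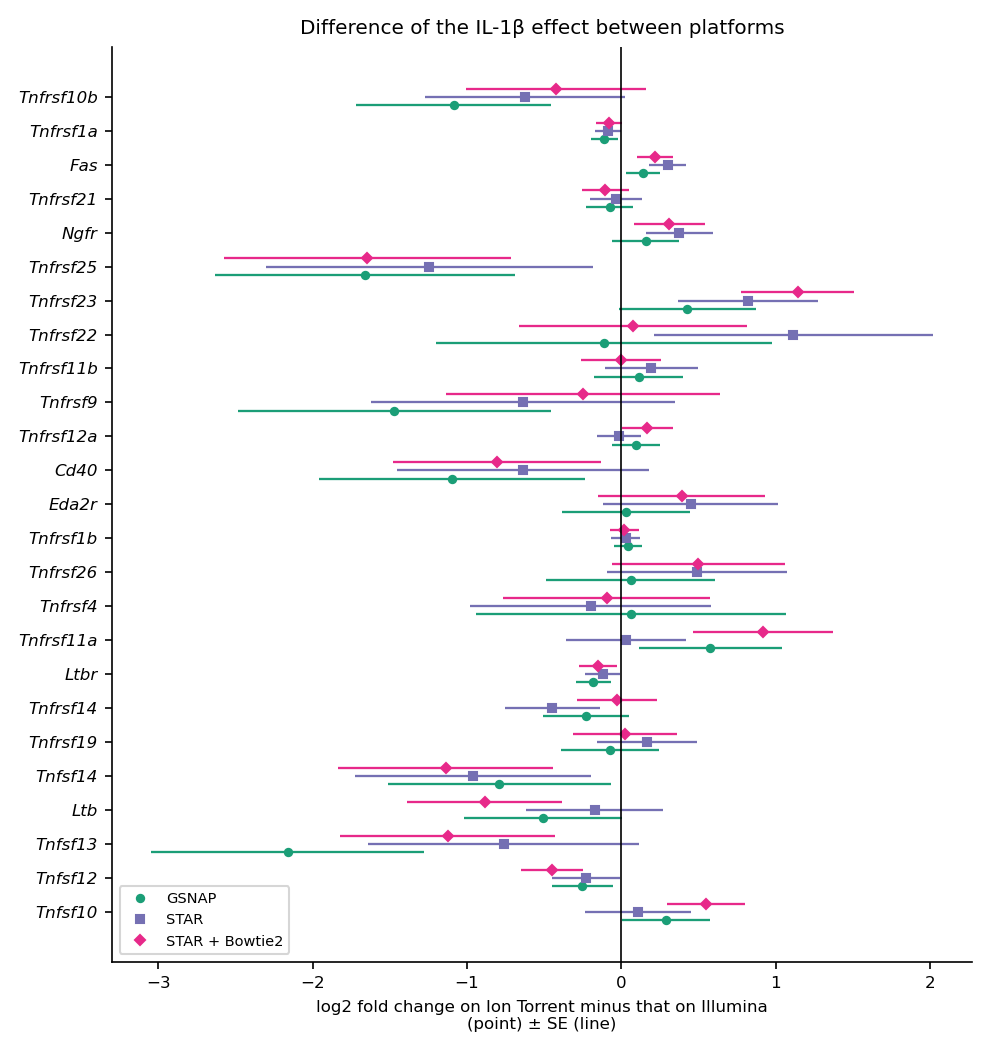
Log2 fold change on Ion Torrent minus that on Illumina (points, ± SE as lines) for the 25 tested members and each of the 3 aligners, over the same 10 mice. Members with many reads such as Tnfrsf1a and Tnfrsf1b lie close to 0 with short lines, while Tnfsf13 with GSNAP (−2.16) and Tnfrsf25 lie to the left with long ones.

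Genes that act downstream of TNF receptors were taken as a list of 29, all of which were tested. The list was chosen with earlier results of these data known. Of these, 15 were higher and 2 lower in every table, beside 17.3% and 17.6% of all genes. The median log2 fold change of the list was 0.61 with Illumina GSNAP and 0.46 with Ion Torrent GSNAP. The lower genes were Tradd, the adaptor that binds the death domain of Tnfrsf1a (log2 fold change −0.83 ± 0.21 on Illumina), and Traf5, a TRAF adaptor (−0.90 ± 0.34, adjusted p = 0.0437). In that table the call of Traf5 was lost when any of 8 mice was left out (adjusted p from 0.0548 to 0.109) and held without ILB_9577 or UNT_9574, while on Ion Torrent GSNAP it held without each of the 10 mice (log2 fold change −1.43 ± 0.27, adjusted p = 0.000513). Traf1, Traf6, Ripk3, Fadd, Map3k7, Ikbkb and Chuk were called in no table, and Traf3, Casp8, Cyld, Ikbkg and Nfkbia were higher in some.

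The non-canonical NF-κB branch held the largest rise of the list. Nfkb2, the precursor of p52, had 53, 62, 58, 60 and 37 Illumina reads in untreated mice and 348, 221, 565, 460 and 306 in treated mice. That was a fold of 7.94 (log2 fold change 2.99 ± 0.23, adjusted p = 1.69e-07). Map3k14, which encodes NIK, the kinase upstream of Nfkb2 processing, rose from 34, 51, 53, 39 and 32 reads to 155, 190, 157, 134 and 156 (2.09 ± 0.16, adjusted p = 1.41e-07). Both had separate groups. Relb, the partner of p52, and Traf2 and Birc2, which hold NIK in check in resting cells, were higher too (1.63 ± 0.30, 0.72 ± 0.11 and 0.71 ± 0.13).

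Of the canonical branch Rela rose with a log2 fold change of 1.22 ± 0.11 (adjusted p = 5.01e-07) and Nfkb1 with 0.61 ± 0.15. The inhibitors of this branch included Tnip1 (1.43 ± 0.17, adjusted p = 9.58e-06) and Tnfaip3, which encodes A20. Tnfaip3 had 35, 62, 38, 21 and 34 reads in untreated mice and 71, 592, 100, 65 and 61 in treated mice, so that a single treated mouse (ILB_9578) carried most of the reads and mouse ILB_9583 fell within the untreated range. Its log2 fold change of 2.40 ± 0.62 (adjusted p = 0.0051) became 1.12 without that mouse and still passed the test (adjusted p = 0.0024). Under limma-voom it missed the threshold on Illumina (1.78).

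Of the death branch, Mlkl, the pore-forming effector of necroptosis, rose from 46, 40, 38, 33 and 21 reads to 86, 99, 149, 131 and 92 without overlap (1.82 ± 0.21, adjusted p = 6.28e-06). Ripk1, the kinase shared by survival and death signalling, and Cflar, which encodes the caspase-8 inhibitor c-FLIP, rose by 0.88 ± 0.11 and 0.82 ± 0.12 on the log2 scale. Fadd (−0.06 ± 0.20), Casp8 (0.06 ± 0.12) and Ripk3 (−0.05 ± 0.33) passed no test in this table. Adam17, the protease that sheds TNF and its receptors, rose by 0.80 ± 0.11.

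**Figure D5:**
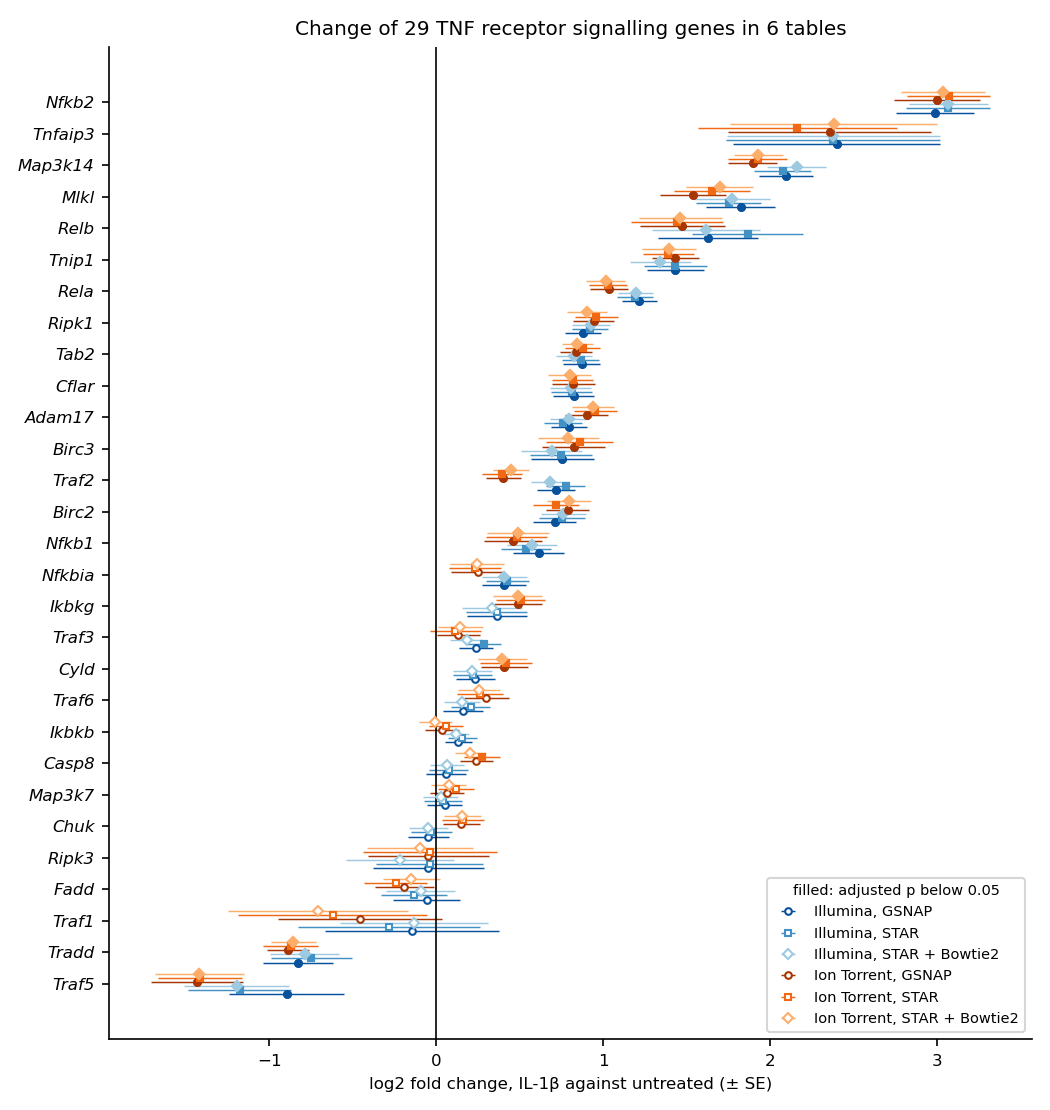
Log2 fold change (± SE) of the 29 downstream genes in each of the 6 tables, with filled symbols for an adjusted p below 0.05. Nfkb2, Tnfaip3, Map3k14 and Mlkl lie farthest to the right and Tradd and Traf5 to the left, while Fadd, Ripk3 and Chuk lie near 0.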

How the data were processed

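Liver RNA of 10 mice was sequenced on Illumina and Ion Torrent. The authors aligned reads to mm9 with GSNAP, STAR 2.5.1b or STAR with Bowtie2 2.2.9, removed ribosomal and mitochondrial reads, re-sampled libraries to equal size and deposited gene counts over Ensembl models, which were taken as read pairs for Illumina and reads for Ion Torrent. From these counts, each table was fitted with edgeR 4.0.16 (TMM, quasi-likelihood, Benjamini-Hochberg, adjusted p below 0.05, 5 mice per group) for genes with 5 or more reads in at least 5 libraries of any table. Alternatives were DESeq2 1.42.0, limma 3.58.1 (voom), an exact rank-sum test, other filters and scalings, and each mouse left out. Alternatives for the role groups, the downstream genes and the summed levels were chosen after seeing the data. Scripts were tested on simulated data. The mouse number pairs libraries across platforms (correlation of deviations 0.197–0.746), so the platform term used it as a replicate block. Members and lists were chosen with earlier results of these data known. Named genes were members called in all 6 or in some tables, a fixed set of ligand and receptor pairs, untested members, Saa1 as a check, and the 6 downstream genes with the largest fold changes among those called in all 6 tables with a mean of at least 50 reads. Tnfrsf4 and the other downstream genes given with values were named after their values were seen. Exon lengths and gene positions are those of Ensembl on NCBIM37. Transcripts were compared with BLAST+ 2.17.0. Depth limits low members, and intervals of pooled reads cover counting error only.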

Additional observations from a re-analysis of the deposited data

Results flagged for a closer look

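In groups of 5 mice, a mouse was listed where its gap to the nearest other mouse was over 0.71 of the range of its group. Of 136 groups examined over the tested members, 6 downstream genes and the summed levels, 13 had such a mouse, and chance gives about 1 in 20. Treated mouse ILB_9578 gave 4 of the values. Tnfaip3 stood at 54.9 normalised CPM in that mouse on Illumina, against 5.79–9.36 in the other treated mice, and at 49.7 against 4.27–8.07 on Ion Torrent. Eda2r stood at 3.43 against 1.12–1.77 on Illumina, and Tnfrsf11a at 1.62 against 0.714–0.920 on Ion Torrent.

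Untreated mouse UNT_9584, whose 2 libraries were less alike across genes, gave 3 of the values. These were Eda2r at 1.32 against 0.335–0.567 and Tnfrsf10b at 0.527 against 0.0792–0.167 on Illumina, and Tnfrsf22 at 0.540 against 0–0.127 on Ion Torrent, from 15, 6 and 8 reads. Each lay toward the treated group. Treated mouse ILB_9583 was the highest of its group for Ltbr on both platforms, at 102.9 against 80.2–86.5 on Illumina and 186.4 against 122.1–135.0 on Ion Torrent.

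Untreated mouse UNT_9574 was high for Tnfrsf19 on Illumina (7.37 against 5.28–5.79) and for Mlkl on Ion Torrent (4.21 against 2.60–3.04). Treated mouse ILB_9577 had a summed ligand level of 8.43 normalised CPM per kilobase on Ion Torrent, against 4.57–5.30 in the other treated mice, and a ligand share of 2.97% against 1.62–1.73%.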

How the results depend on the processing

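No result that passed its test changed direction under an alternative. Of those that did not pass, the ratio of summed ligands on Ion Torrent crossed 1 when a mouse was left out, and Tnfsf13 with Illumina GSNAP, at a log2 fold change of 0.00, took either sign. With no TMM factors, 4 members were lower with Illumina GSNAP, among them 1 decoy or soluble receptor and 2 ligands. The rank-sum test on deposited counts gave, with Illumina GSNAP, 1 higher decoy receptor, 3 higher other receptors, 2 lower ligands and 1 lower downstream gene, and with Ion Torrent GSNAP 3 lower members, 1 higher decoy receptor, 1 higher ligand and 1 lower other receptor. With Ion Torrent STAR it gave 4 lower members and 11 higher downstream genes. A mean count of at least 10, which tests fewer genes, left 1 higher decoy receptor on each platform and 1 higher ligand on Illumina with GSNAP, and 9 higher members with Ion Torrent STAR. Requiring an absolute log2 fold change above 1 left 7 higher downstream genes in each of the 6 tables and 0 (Illumina GSNAP) or 1 (the other 5 tables) lower, and with Ion Torrent GSNAP 3 lower members and 1 lower other receptor. With limma-voom 5 members were lower with Ion Torrent STAR + Bowtie2. Except where a filter or fold limit sets it, the cause was not tested. The alternatives for role groups, downstream genes and summed levels were chosen after seeing the data.

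When 1 mouse was left out at a time, members called lower ranged from 2 to 4 with Illumina GSNAP (4 without UNT_9580) and from 3 to 5 with Ion Torrent GSNAP (3 without ILB_9578, UNT_9574 or UNT_9580). Lower downstream genes with Illumina GSNAP ranged from 1 to 2 (Traf5 was lost when any mouse other than ILB_9577 or UNT_9574 was left out). Lower decoy receptors ranged from 0 to 1 (1 without ILB_9577, ILB_9578 or UNT_9580) and lower other receptors from 1 to 2 (2 without ILB_9582 or UNT_9580) with Illumina GSNAP. With Ion Torrent GSNAP lower ligands ranged from 1 to 3 (1 without UNT_9580) and lower other receptors from 1 to 2 (1 without ILB_9578, UNT_9574 or UNT_9575). The ratio of summed ligands on Ion Torrent ranged from 0.851, without ILB_9577, to 1.02, without ILB_9578.

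The platform term was fitted with the mouse as a replicate block. Its members below an unadjusted p of 0.05 ranged, with a mouse left out, from 0 to 3 (GSNAP), 0 to 3 (STAR) and 1 to 6 (STAR + Bowtie2, 6 without ILB_9577), and none was called in any of these fits. With STAR the count was 0 with no replicate block and 2 with limma-voom and the block. Within a table the 2 groups are different mice, so no pairing applies there. Untested members had at most 11 reads in a library, which limits what could be detected.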
